A study of Mus musculus with 39 samples.

Results

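The common direct targets of bone morphogenetic protein (BMP) signalling were followed through the derivation of germ cells from granulosa cells: Id1, Id2, Id3, Id4, Smad6, Smad7, Msx1, Msx2 and Bambi. They were picked by symbol as a list of 9 genes, of 20354 genes in the table of germ cell induction. The list was chosen with earlier results of these data known, so counts of members called beside the share of all genes are descriptive. All 9 were present in each of the 5 deposited tables (by Ensembl identifier in the table of 1 fibroblast library). All 9 passed the filter on low values in each table that was tested. In the mouse build GRCm38.p6 they lie at chr2:152736251-152737410 (Id1), chr12:25093799-25096092 (Id2), chr4:136143822-136145392 (Id3), chr13:48261116-48266028 (Id4), chr9:63953076-64022085 (Smad6), chr5:37820491-37824585 (Msx1) and chr13:53466881-53472780 (Msx2), with Smad7 and Bambi on chromosome 18.

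BMPs are secreted ligands that bind pairs of type I and type II receptor kinases. The type I receptor phosphorylates SMAD1, SMAD5 and SMAD9, which join SMAD4, enter the nucleus and raise transcription of these targets. In the mouse embryo BMP4 from the extraembryonic ectoderm sets aside the primordial germ cells from the epiblast, and in culture BMP4 is added to epiblast-like cells for the same purpose. Several of the targets feed back on the pathway, so that their RNA is often read as a sign of recent signalling.

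The series holds 39 RNA-seq libraries in 14 groups, all of strain C57BL6/CBA. Granulosa cells (GC), the somatic cells that surround the oocyte, were reprogrammed and sampled at day 16 and at day 28, the latter also with 7 mM crotonic acid given from day 16 on. The products were 6 pluripotent lines named gPSC, set beside female embryonic stem (ES) cells and embryonic fibroblasts (MEF). For germ cell induction, female ES cells (ESC) and the gPSC4 line were turned into epiblast-like cells (EpiLC) over 2 days with activin A at 2 ng/ml, bFGF and serum replacement, without BMP4. They were then turned into primordial germ cell-like cells (PGCLC) over 4 days with BMP4 at 500 ng/ml, SCF at 100 ng/ml, EGF at 50 ng/ml and 1000 IU Lif, and compared with primordial germ cells (PGC) of stage E12.5. Each of these 7 induction groups had 3 libraries, the 3 reprogramming groups and ES had 2 each, each line had 1, and granulosa cells and fibroblasts had 2 each in separate tables. The gPSC4 origin is 1 line, and the labels name no sort for the PGCLC and no culture without BMP4, so that at the PGCLC step BMP4, the other 3 added factors and the time in culture cannot be told apart.

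Levels are FPKM, a unit corrected for transcript length and for the number of mapped fragments. The 21 induction libraries held between 6107146 and 25223551 reads assigned to genes, and the depth of the other tables is unknown. Differences were tested with limma on log2(FPKM + 1) across all genes of a table, and a gene was called when its Benjamini-Hochberg adjusted p was under 0.05 and its log2 difference at least 1. On this scale the change of genes near 0 FPKM is understated. The labels do not say whether libraries of a group came from separate cultures or animals, so each p-value rests on the spread among libraries, which may be technical.

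Marker genes were checked first in the induction libraries, for the germ cell and EpiLC labels and for other cells. The 10 germ cell markers summed to between 3620 and 3989 FPKM in the 6 PGCLC libraries and to between 3978 and 4022 in PGC, against 91.4 to 145 in the 12 stem cell and EpiLC libraries. Among them Ddx4 and Dazl, which in the embryo become abundant once germ cells have reached the gonad, averaged 230 and 829 FPKM in the libraries labelled ESC-PGCLC, against 250 and 862 in PGC. The 7 EpiLC markers summed to between 697 and 874 FPKM in EpiLC and to at most 58.5 in the other induction libraries. Markers of other cells were also high in PGCLC. The 11 markers of fetal gonad soma summed to between 185 and 212 FPKM in PGCLC and between 218 and 231 in PGC, against 10.5 to 15.8 in stem cells and 36.2 to 53.7 in EpiLC, with 9 or 10 of 11 at 1 FPKM or more in each PGCLC library. The gonadal transcription factor gene Nr5a1 averaged 20.1 FPKM in ESC-PGCLC, 14.7 in gPSC4-PGCLC and 19.7 in PGC, and was at or near 0 before, whereas Foxl2 stayed under 1 FPKM. The 12 mesoderm markers summed to between 69.2 and 82 FPKM in PGCLC, against 7.79 to 15.7 in EpiLC and 78.6 to 161 in stem cells. In PGCLC Foxf1 was at 0 and T at or near 0. Gata4, also on the gonad soma list, averaged 37.2 FPKM in ESC-PGCLC and 39.1 in gPSC4-PGCLC, so the mesoderm sum is not independent of that list. The 10 blood and endothelium markers summed to between 518 and 916 FPKM in PGCLC and between 640 and 678 in PGC, against 24.3 to 72.9 before, mostly from the globin gene Hba-a1, which averaged 573 FPKM in ESC-PGCLC, while in PGCLC Ptprc stayed under 1 FPKM and Tal1 reached at most 1.19. What cells the libraries labelled as 4-day PGCLC held could not be settled from the labels and files, since they carried these germ cell, gonadal and blood markers near the levels of E12.5 PGC. The part of such cells in the results below was not tested, and in these bulk libraries more cells of a type and more RNA per cell cannot be told apart.

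**Figure D1:**
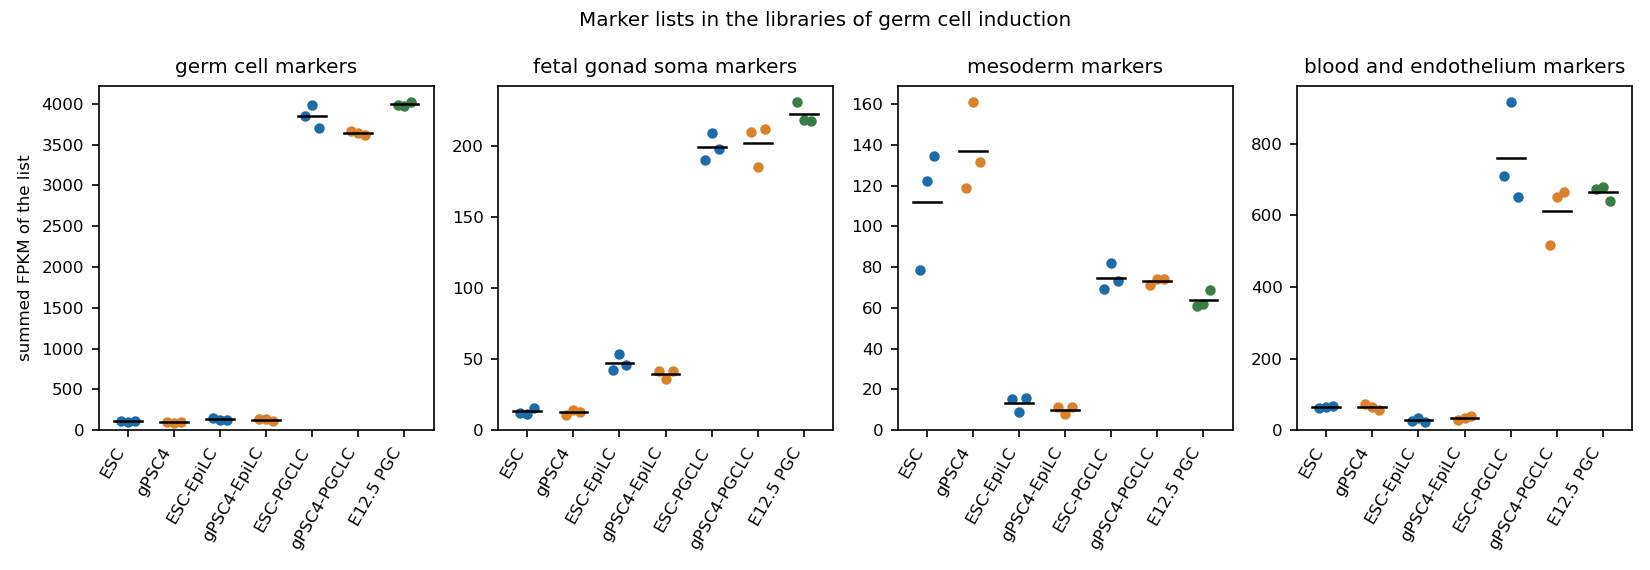
Summed FPKM of 4 marker lists in each of the 21 induction libraries, with points for libraries and bars for group means on linear axes. The germ cell, fetal gonad soma and blood lists stand higher in all PGCLC and PGC libraries than in any stem cell or EpiLC library, whereas the mesoderm list is lowest in EpiLC.

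The sequence just upstream of the transcription start was read for 6 members (Id2, Id3, Id4, Smad6, Msx1 and Msx2) from RefSeq, build GRCm38.p6. SMAD1 and SMAD5 are known to bind the GC-rich letters GGCGCC, which read the same on both strands, and SMAD4 the letters GTCT. The 4 windows below are shown because Id3 and Msx2 had the largest rises on the log2(FPKM + 1) scale among the members with a window, and because Id2 and Id4 were the only ones with GGCGCC. Each runs 5′ to 3′ over the 250 bases before the start, and capitals mark GGCGCC, and GTCT or its reverse complement AGAC.
Id3 upstream window, chr4:136143572-136143821, plus strand: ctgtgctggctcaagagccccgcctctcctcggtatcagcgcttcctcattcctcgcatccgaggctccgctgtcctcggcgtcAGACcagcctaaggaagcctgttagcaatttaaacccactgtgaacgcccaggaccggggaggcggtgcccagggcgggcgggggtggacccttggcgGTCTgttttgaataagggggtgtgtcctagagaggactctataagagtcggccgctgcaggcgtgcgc
Msx2 upstream window, chr13:53472781-53473030, minus strand: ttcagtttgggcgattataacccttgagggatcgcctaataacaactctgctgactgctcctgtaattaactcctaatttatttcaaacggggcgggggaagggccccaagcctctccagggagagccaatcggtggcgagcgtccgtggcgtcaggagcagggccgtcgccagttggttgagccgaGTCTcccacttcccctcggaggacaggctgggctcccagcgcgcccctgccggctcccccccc
Id2 upstream window, chr12:25096093-25096342, minus strand: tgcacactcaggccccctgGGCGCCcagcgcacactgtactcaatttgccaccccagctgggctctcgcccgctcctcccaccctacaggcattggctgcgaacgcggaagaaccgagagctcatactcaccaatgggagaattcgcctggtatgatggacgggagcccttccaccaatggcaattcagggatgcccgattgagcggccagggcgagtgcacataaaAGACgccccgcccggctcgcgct
Id4 upstream window, chr13:48260866-48261115, plus strand: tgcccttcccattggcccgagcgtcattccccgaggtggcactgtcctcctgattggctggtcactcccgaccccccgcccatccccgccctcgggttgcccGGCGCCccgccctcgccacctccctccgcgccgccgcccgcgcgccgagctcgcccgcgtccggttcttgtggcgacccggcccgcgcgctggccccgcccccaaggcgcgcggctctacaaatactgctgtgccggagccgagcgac
GGCGCC was present in 9.54% of 27025 upstream windows of the same length, and began 231 bases before the start in Id2 and 148 bases before it in Id4. GTCT on either strand was present in 83% of windows, so its presence is common. Both joined with 5 bases between them, the form of the BMP response element known from the Id1 promoter, were found in 0.0703% of windows and in 0 of these 6. At so low a share 0 of 6 carries no weight. No Id1 window was read, and an element further upstream than 250 bases would not have been seen. The 4 windows had between 61.6% and 75.6% G and C, against a median of 52% over all windows. A match is a description of letters and not of binding.

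At the PGCLC step most members rose. From EpiLC to PGCLC 8 of 9 were called higher and 0 lower with ES cells as the origin, and 7 of 9 higher and 0 lower with gPSC4, where 29.3% and 29.7% of all 14059 genes tested were called in either direction and 16.7% and 15.8% were called higher. The median log2 difference of the 9 genes was 2.33 and 2.65, against 0.10 and 0.08 over all genes. On the log2(FPKM + 1) scale Id1, Id3 and Msx2 had the largest rises, and Smad7 was called in neither origin. The germ cell, gonad soma, mesoderm and blood marker sums were higher in the same libraries, as given above. Fibroblast and extraembryonic endoderm markers were mixed. Col3a1 averaged 1.42 FPKM in ESC-EpiLC and 24.3 in ESC-PGCLC, and Gata6 0.057 and 7.80. In contrast Thy1 averaged 2.54 and 0, and Lamb1 22.1 and 14.1. The part of all these cells in the rises of members was not tested.

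The ID proteins (inhibitors of DNA binding) lack a DNA-binding domain and block the E proteins by pairing with them. Id1 was measured at 17.0, 14.9 and 15.7 FPKM in ESC and at 2.73, 1.10 and 1.38 in ESC-EpiLC, and then at 201, 214 and 166 in ESC-PGCLC. In gPSC4 it was at 22.7, 19.7 and 17.9 FPKM, in gPSC4-EpiLC at 2.39, 1.19 and 1.32, and in gPSC4-PGCLC at 65.3, 189 and 183. Every PGCLC library was above every stem cell and EpiLC library, and the first gPSC4-PGCLC library stood well below the other PGCLC libraries. The rise at the PGCLC step was 6.19 ± 0.29 on the log2 scale (standard error, SE, 3 libraries a group, limma adjusted p = 9.83e-13) from ESC and 5.68 ± 0.29 (adjusted p = 3.84e-12) from gPSC4. Without that first library the gPSC4 rise of Id1 was 6.18. In that library 240 of 9462 genes with a mean of at least 5 FPKM lay at least 2-fold below both other libraries of the group, against 145 and 101 in the other two.

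Id3, which encodes a close relative of ID1, was the most abundant member in the stem cells, PGCLC and PGC. Its levels were 415, 413 and 380 FPKM in ESC, 32.8, 27.0 and 20.2 in ESC-EpiLC and 1076, 1043 and 995 in ESC-PGCLC. From gPSC4 on they were 353, 336 and 330 FPKM, then 10.4, 26.4 and 18.5, then 635, 891 and 899. The groups did not overlap between stages, and EpiLC were lowest in both series. Id3 rose by 5.26 ± 0.21 (limma adjusted p = 7.46e-14) from ESC-EpiLC to ESC-PGCLC and by 5.45 ± 0.21 (adjusted p = 5.25e-14) in the gPSC4 series.

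Id2 took another course, since it was not low in EpiLC. It was at 39.3, 32.5 and 37.0 FPKM in ESC, at 66.9, 48.8 and 59.0 in ESC-EpiLC and at 201, 218 and 190 in ESC-PGCLC. With gPSC4 as the origin it was at 44.2, 30.6 and 33.4 FPKM, then 34.4, 33.2 and 30.1, then 219, 227 and 184. PGCLC libraries were above all others in both series. Id2 rose by 1.79 ± 0.13 (limma adjusted p = 5.19e-10) and by 2.65 ± 0.13 (adjusted p = 1.69e-12) at the PGCLC step.

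Id4, the least abundant ID gene, was almost without reads in EpiLC. It was at 5.42, 4.88 and 4.18 FPKM in ESC and at 3.26, 7.61 and 3.16 in ESC-PGCLC, but the 3 ESC-EpiLC libraries held 1, 0 and 0 reads of it, where 3 reads would be 1.01 FPKM in the second library and 0.422 in the third. In the gPSC4 series it was at 8.93, 4.42 and 4.73 FPKM, then at 0, 1.97 and 0.35, then at 6.52, 9.38 and 2.42. PGCLC and stem cell libraries overlapped, and EpiLC libraries lay below both. From ESC-EpiLC to ESC-PGCLC the summed reads per assigned read rose 62.1-fold, with an exact 95% interval of 10.8 to 2490 that covers counting error only. In the gPSC4 series that ratio was 9.31 (5.03 to 19.1). The limma differences were 2.33 ± 0.42 (adjusted p = 9.07e-05) and 2.02 ± 0.42 (adjusted p = 0.000385).

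**Figure D2:**
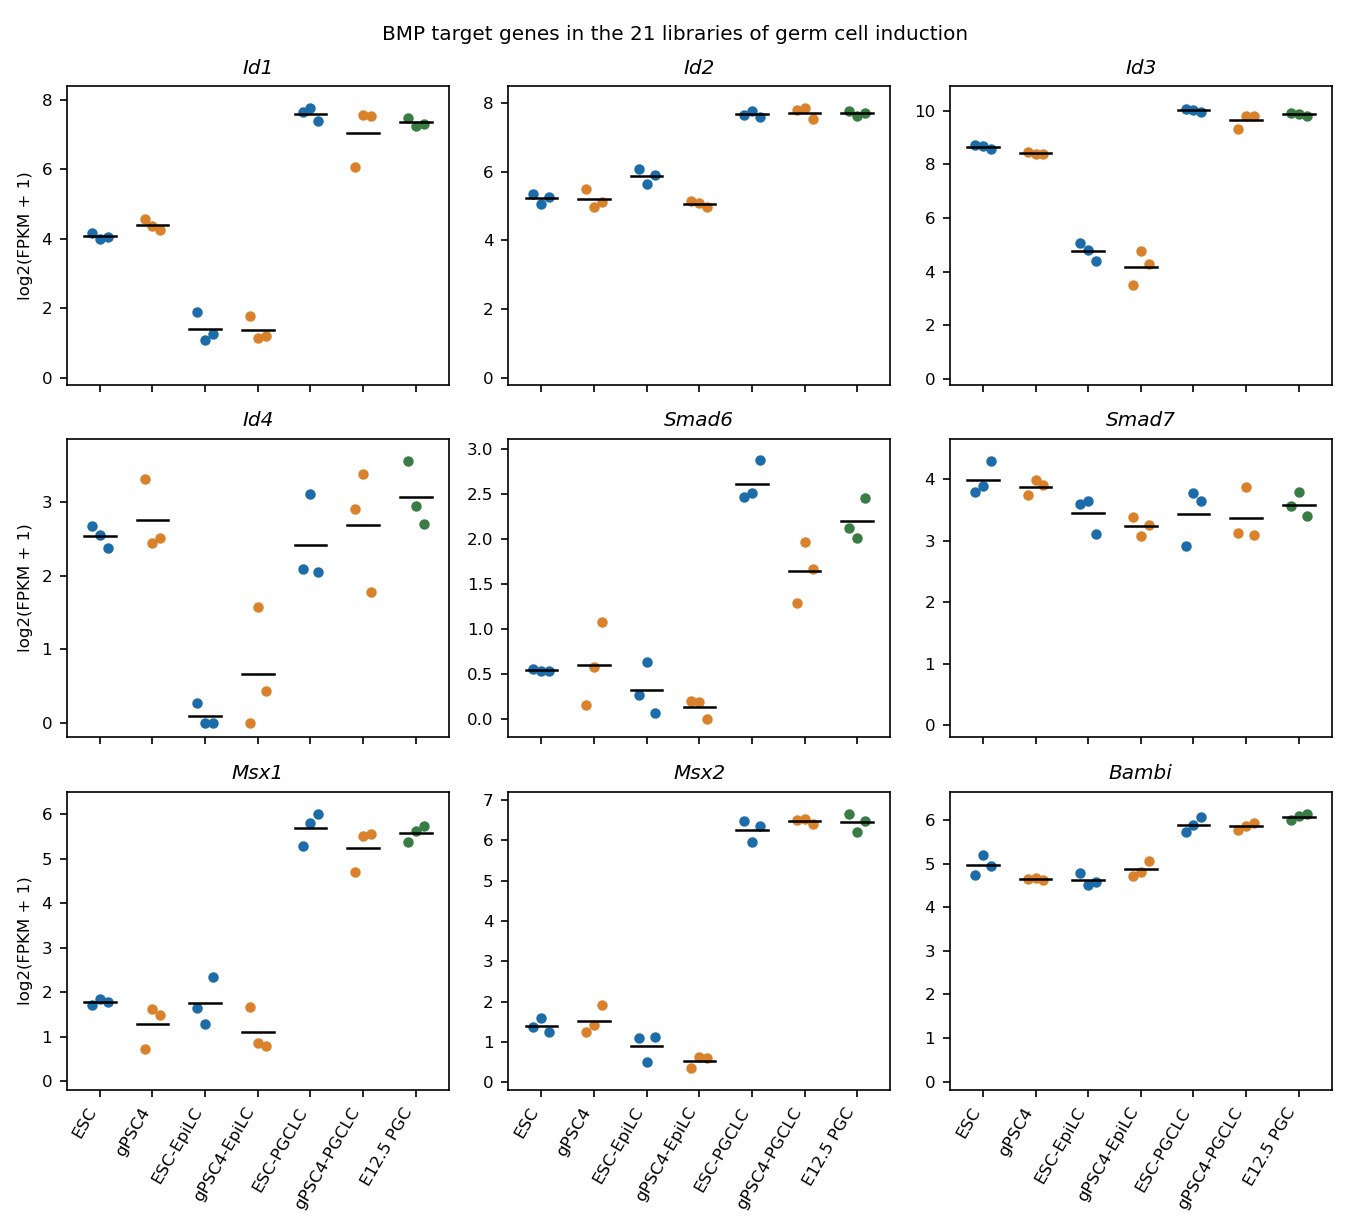
Each panel gives 1 member in the 21 induction libraries as log2(FPKM + 1), with points for libraries and bars for group means. Id1, Id3 and Id4 drop in EpiLC and are high again in PGCLC, Msx1 and Msx2 are low until PGCLC, and Smad7 lies between 6.52 and 18.7 FPKM in all libraries.

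The inhibitory SMADs, SMAD6 and SMAD7, bind activated type I receptors and shut the signal down. SMAD6 acts mainly on BMP receptors, whereas SMAD7 also acts on receptors for TGF-beta and activin. Smad6 was at 0.48, 0.45 and 0.45 FPKM in ESC, at 0.20, 0.55 and 0.05 in ESC-EpiLC and at 4.50, 4.68 and 6.30 in ESC-PGCLC. With gPSC4 as the origin it was at 0.11, 0.50 and 1.11 FPKM, then 0.15, 0.14 and 0, then 1.45, 2.90 and 2.16. All PGCLC libraries lay above all libraries of the earlier stages, and the 3 of gPSC4 origin lay below the 3 of ESC origin. Smad6 rose by 2.29 ± 0.25 (limma adjusted p = 1.80e-07) and by 1.5 ± 0.25 (adjusted p = 3.61e-05), and its summed reads per assigned read rose 26.1-fold (13.5 to 57.8) and 21.5-fold (8.97 to 67.2). Smad7 was between 6.52 and 18.7 FPKM in all 21 libraries. Its difference at the PGCLC step was -0.01 with a 95% interval of -0.52 to 0.50 in the ESC series (limma adjusted p = 0.967) and 0.13 with -0.38 to 0.64 in the gPSC4 series (adjusted p = 0.682), so a change as large as that of Smad6 lies outside both intervals.

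Msx1 and Msx2 encode homeodomain repressors that BMP induces in many embryonic tissues. Msx1 was at 2.27, 2.59 and 2.44 FPKM in ESC, at 2.11, 1.44 and 4.12 in ESC-EpiLC and at 38.4, 54.8 and 63.4 in ESC-PGCLC. Along the gPSC4 series it was at 0.65, 2.11 and 1.81 FPKM, then 2.17, 0.82 and 0.74, then 25.0, 44.3 and 46.1. Stem cells and EpiLC overlapped, and the PGCLC libraries lay far above both. Its rise was 3.94 ± 0.31 (limma adjusted p = 2.09e-09) and 4.15 ± 0.31 (adjusted p = 1.10e-09). Msx2 was at 1.57, 2.00 and 1.38 FPKM in ESC, at 1.14, 0.41 and 1.19 in ESC-EpiLC and at 87.9, 61.7 and 80.9 in ESC-PGCLC. In the gPSC4 series it was at 1.37, 1.66 and 2.74 FPKM, then 0.28, 0.53 and 0.52, then 89.3, 91.3 and 84.1. Again no PGCLC library came near the earlier stages, and the rise of Msx2 was 5.36 ± 0.21 (limma adjusted p = 5.53e-14) and 5.95 ± 0.21 (adjusted p = 1.32e-14).

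BAMBI is a membrane protein that resembles a type I receptor but has no kinase, and it damps BMP and TGF-beta signals. Bambi was already at 21.8 to 35.9 FPKM in the 12 stem cell and EpiLC libraries. It was at 52.2, 57.9 and 66.1 FPKM in ESC-PGCLC and at 53.3, 57.6 and 60.1 in gPSC4-PGCLC. The PGCLC libraries were all above the earlier ones, but by a smaller factor than for the other genes that rose. Bambi rose by 1.27 ± 0.13 (limma adjusted p = 4.95e-08) in the ESC series. In the gPSC4 series the difference was 0.99 ± 0.13 (adjusted p = 1.53e-06), just under the minimum of 1, and it was 1.03 without the first gPSC4-PGCLC library and 1.09 without the third gPSC4-EpiLC library.

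Whether the response at the PGCLC step depended on the origin was tested as the difference of the 2 rises. With limma 0 of 9 members were called, where 0.0854% of all genes were. An unadjusted p under 0.05 was found for 2 of 9, and for 1627 of all 14059 genes tested. The voom test on recovered reads also called 0. For Id2 the rise was 0.86 larger from gPSC4 (95% interval 0.47 to 1.24, adjusted p = 0.0973), and for Smad6 the difference was -0.78 (-1.52 to -0.05, adjusted p = 0.402). For Id1 the difference was -0.51 (-1.38 to 0.36), for Id3 0.20 (-0.43 to 0.82) and for Msx2 0.59 (-0.03 to 1.22). The intervals of Id1 and Msx2 extend past a difference of 1. The Id1 difference was -0.01 without the first gPSC4-PGCLC library.

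**Figure D3:**
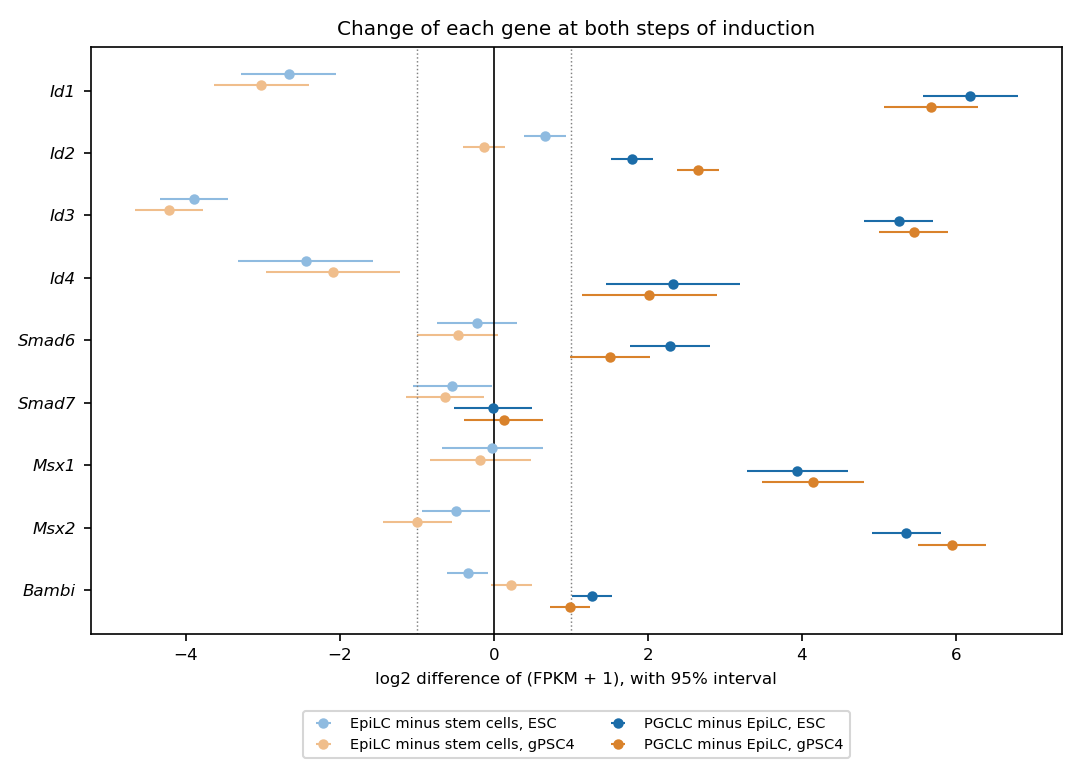
Log2 differences of (FPKM + 1) with 95% intervals for each member at the EpiLC step (pale) and the PGCLC step (dark), in blue for ESC and orange for gPSC4 origin, with dotted lines at -1 and 1. Id1, Id3 and Id4 fall at the first step and rise at the next in both origins, and at the PGCLC step the intervals of the origins overlap for every member except Id2 (1.52 to 2.06 and 2.38 to 2.92).

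Levels were also compared between the origins at each stage. In PGCLC 0 of 9 members were called by limma (0.313% of all genes), and voom called 0. At an unadjusted p under 0.05 was 1 of 9, against 1973 of all 14059 genes. That 1 was Smad6, with a difference of -0.97 (95% interval -1.49 to -0.45, adjusted p = 0.0765) and groups that did not overlap, which was -0.80 without the first gPSC4-PGCLC library. In EpiLC 0 of 9 were called (0.0711% of all genes), and voom called 0. At an unadjusted p under 0.05 were 2 of 9, against 1202 of all 14059 genes. Those were Id3 (-0.57) and Id2, for which gPSC4-EpiLC minus ESC-EpiLC was -0.81 (-1.08 to -0.54, limma adjusted p = 0.00934), short of the minimum of 1, and the 3 libraries of each origin did not overlap. In stem cells 0 of 9 were called (0.00711% of all genes), and voom called 0. At an unadjusted p under 0.05 was 1 of 9, Bambi (-0.32), against 592 of all 14059 genes.

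The EpiLC step, at which no BMP4 was given, moved a part of the list the other way. Id1, Id3 and Id4 fell in both origins, so that 3 of 9 members were called lower and 0 higher, where 21% of all genes were called in the ESC series and 20.4% in the gPSC4 series in either direction, and 11.3% and 10.3% were called lower. Id3 fell by 3.89 and 4.22 on the log2 scale, Id1 by 2.67 and 3.02, and Id4 by 2.45 and 2.09, with limma adjusted p from 4.35e-12 to 0.000405. The Id1 fall in the ESC series was not called by voom: on recovered reads, of which the 3 ESC-EpiLC libraries held 12, 3 and 9, it gave -3.17 with an adjusted p of 0.0612. Id2 was 0.66 ± 0.13 higher in ESC-EpiLC than in ESC (adjusted p = 0.000335), under the minimum of 1, and differed by -0.13 (95% interval -0.40 to 0.14) in the gPSC4 series. Msx2 differed by -0.49 and -0.99 and Smad7 by -0.54 and -0.63, all short of the call. Several fibroblast markers were lower in EpiLC as well. Col1a1 averaged 135 FPKM in ESC and 104 in gPSC4, against 4.99 and 3.65 in their EpiLC. Dcn averaged 102 and 82.6 FPKM, against 19.0 and 14.6, and Lum 50.0 and 35.5, against 4.3 and 3.13. Pdgfra and Twist1, on the same list, averaged under 1 FPKM in these groups. The part of fibroblast RNA in the falls of members was not tested. The difference of the EpiLC steps between origins, a comparison added after the values were seen, gave 0 of 9 calls (0.0142% of all genes). By voom it gave 0 calls too. At an unadjusted p under 0.05 were 2 of 9, against 663 of all 14059 genes. The difference was -0.79 for Id2 (-1.17 to -0.40, limma adjusted p = 0.42) and 0.57 for Bambi (0.19 to 0.94).

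Over the whole course from stem cells to PGCLC, 6 of 9 members were called higher in the ESC series, where 30.6% of all genes were called in either direction and 16% higher. In the gPSC4 series 7 of 9 were called higher, where 28.8% of all genes were called and 15.2% higher. Msx2 was higher by 4.87 and 4.96, Msx1 by 3.92 and 3.97, Id1 by 3.52 and 2.66, Id2 by 2.45 and 2.52, and Id3 by 1.37 and 1.23. Smad6 was higher by 2.07 and 1.03, and the smaller of the values fell to 0.81 and was no longer called without the first gPSC4 library, and to 0.87 without the second gPSC4-PGCLC library. Id4 differed by -0.12 (95% interval -0.99 to 0.76) and -0.07 (-0.94 to 0.81). The ESC and PGCLC groups share libraries with the step comparisons above.

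In PGC of stage E12.5 the members stood near their PGCLC levels. Id3 was at 952, 944 and 889 FPKM, Id2 at 217, 196 and 205, and Id1 at 178, 151 and 157. Msx2 was at 99.6, 72.6 and 88.6 FPKM, Msx1 at 40.3, 48.3 and 52.4, and Bambi at 62.7, 67.5 and 69.5. Smad7 was at 10.8, 12.8 and 9.54 FPKM, Id4 at 10.8, 6.68 and 5.54, and Smad6 at 3.34, 3.03 and 4.49. PGC lay between the PGCLC of both origins for Smad6, above the gPSC4-PGCLC and below the ESC-PGCLC, and overlapped the PGCLC of at least 1 origin for the other 8. With limma 0 of 9 were called against ESC-PGCLC (0.427% of all genes) and 0 of 9 against gPSC4-PGCLC (0.576%), and voom called 0 in both. At an unadjusted p under 0.05 were 0 and 1 of 9, against 1948 and 1848 of all 14059 genes. The intervals were narrowest for Id2 (-0.25 to 0.30 and -0.29 to 0.25) and Bambi (-0.08 to 0.45 and -0.04 to 0.48), and widest for Id4 (-0.22 to 1.53 and -0.49 to 1.26), where a difference past 1 cannot be told from none. For Smad6 PGC differed by -0.42 (-0.94 to 0.11) from ESC-PGCLC and by 0.56 (0.04 to 1.08, adjusted p = 0.339) from gPSC4-PGCLC. The Id1 difference from gPSC4-PGCLC was 0.30 with, and -0.20 without, the first library of that group. Fetal gonad soma and blood markers, given above, were at like levels in PGC and PGCLC, so the doubt about what the PGCLC libraries held applies to this comparison.

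The order of the 7 induction groups, by their mean FPKM, differed between members. ESC-PGCLC, PGC and gPSC4-PGCLC were the 3 highest groups for Id1, Id2, Id3, Smad6, Msx1, Msx2 and Bambi, in varying order. Neighbours among these 3 overlapped for Id1, Id2, Msx1, Msx2 and Bambi, whereas none did for Smad6, and for Id3 the ESC-PGCLC lay above PGC and gPSC4-PGCLC, which overlapped. The next groups for Id1 and Id3 were both stem cells, without overlap between gPSC4 and ESC, gPSC4 being higher for Id1 and lower for Id3, and the EpiLC of both origins came last and overlapped. For Id2 the fourth group was ESC-EpiLC, above ESC, gPSC4 and gPSC4-EpiLC, which overlapped. For Smad6 the 4 lower groups overlapped in turn. For Id4 the order was PGC, gPSC4-PGCLC, gPSC4, ESC and ESC-PGCLC, neighbours that all overlapped, and then both EpiLC groups. Smad7 was highest in ESC and lowest in gPSC4-EpiLC, and its neighbouring groups overlapped throughout.

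Likeness between genes was described by Pearson's r of log2(FPKM + 1) over the 21 induction libraries, which share the same 7 groups, so that any gene that differs between stages takes part. Among the members Msx1 and Msx2 were most alike (r = 0.974), followed by Id2 with Msx1 (0.962) and with Msx2 (0.962), and Id1 and Id3 had r = 0.940. Smad7 had r from -0.26 to 0.38 with the other 8. Outside the list the gene most like Id1 was Gpx4 (0.988), that most like Id2 was Cul4b (0.984), that most like Id3 was Ifitm3 (0.990) and that most like Id4 was Rreb1 (0.933). Those most like the other members were Rab11b for Smad6 (0.955), Gpr83 for Smad7 (0.853), Siah1b for Msx1 (0.989), Efnb1 for Msx2 (0.992) and Ptpre for Bambi (0.975).

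**Figure D4:**
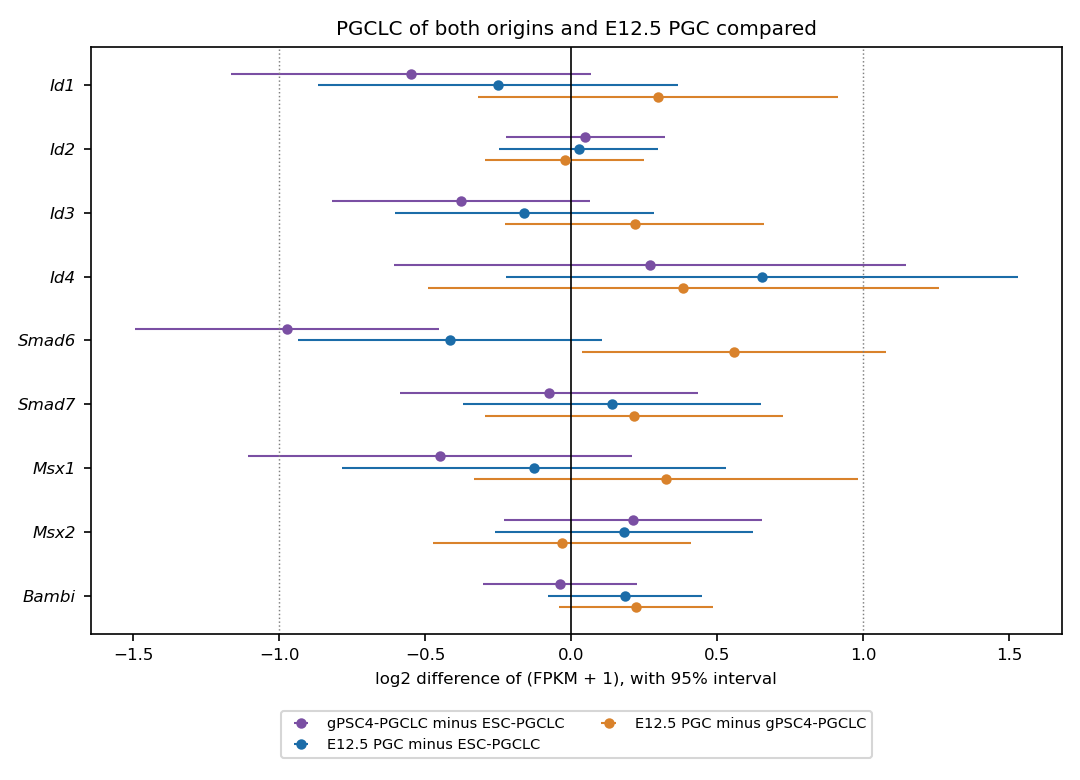
Log2 differences of (FPKM + 1) with 95% intervals between the PGCLC of both origins (purple) and between PGC and the PGCLC of ESC (blue) or gPSC4 (orange) origin. Dotted lines stand at -1 and 1, and 0 of the 9 members was called in any of the 3 comparisons.

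The other genes of the pathway were taken from lists chosen with earlier results of these data known. At the PGCLC step 8 of 11 tested further genes known to be induced by BMP were called higher in the ESC series and 7 of 11 in the gPSC4 series, with 0 lower, where 16.7% and 15.8% of all genes were called higher. Gata2, a transcription factor gene of blood and trophoblast, went from 0.523 to 120 FPKM on average in the ESC series (log2 difference 6.35, limma adjusted p = 8.80e-14) and rose by 5.84 in the gPSC4 series. Hey1, a Notch and BMP target, rose by 5.86 and 5.73. Hand1 and Dlx3, transcription factor genes of mesoderm and placenta, rose by 2.17 and 1.78 in the ESC series, and Tbx3 and Gata3 by 2.30 and 2.27 in the gPSC4 series. At the EpiLC step Tbx3, which also serves in the stem cell network, had fallen by 6.0 and 6.36. Germ cell specification genes rose in 8 of 8 and 7 of 8 cases, led by Dppa3 (6.66 and 7.28), Nanos3 (5.66 and 5.53) and Tfap2c (5.33 and 5.60), and with Prdm14, a germ cell determinant downstream of BMP4, at 5.01 and 5.40. Among targets of nodal and activin, the ligands of the other SMAD branch, 4 of 8 fell and 1, Lefty2, rose in each origin, where 29.3% and 29.7% of all genes were called in either direction. Tdgf1, the nodal co-receptor gene, fell by 3.83 and 2.97, the antagonist gene Lefty1 by 2.55 and 1.94, and Nodal by 1.74 in both.

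Components of the pathway itself were then counted, against 16.7% and 15.8% of all genes called higher at the PGCLC step and 11.3% and 10.3% called lower at the EpiLC step. Of 8 tested ligands 3 rose at the PGCLC step in each origin, Bmp7 by 1.99 and 2.25. The other 2, named after their values were seen, were Bmp2 (2.02 and 1.93) and Amh, the hormone of fetal Sertoli cells (1.96 and 1.64). In turn 3 of 8 ligands fell at the EpiLC step, where Bmp4 itself went from 20.8 to 1.17 FPKM on average in the ESC series (log2 difference -3.33, limma adjusted p = 9.99e-06) and fell by 2.76 in the gPSC4 series. Of 9 receptors 2 rose in each origin at the PGCLC step and 1, Bmpr1b, fell in the gPSC4 series. These 2 of 9 in the ESC series and 3 of 9 in the gPSC4 series compare with 29.3% and 29.7% of all genes called in either direction. The receptors' share was thus near the background. Those that rose were Amhr2, the receptor of anti-Müllerian hormone and itself on the fetal gonad soma list (2.57 and 2.54), and Acvr1, a type I receptor (2.00 and 1.40). Of 5 SMAD mediators tested Smad2 rose by 1.07 and 1.32 and Smad3 by 1.03 and 1.04, both of the activin branch. Smad1 of the BMP branch fell by 1.43 in the gPSC4 series. Smad5, of the BMP branch too and named after its values were seen, was not called. It averaged 20.1 and 20.8 FPKM in EpiLC of ESC and gPSC4 origin, and 35.8 and 33.0 in their PGCLC. Of 10 antagonist genes 1 rose and 1 fell at the PGCLC step in each origin, Nbl1 and Grem1. The secreted antagonist gene Nbl1 fell at the EpiLC step by 2.38 and 2.72 and rose at the PGCLC step by 2.42 and 2.31. The antagonist gene Grem1 fell at the EpiLC step by 3.48 and 3.32, and is listed at 0 in all PGCLC libraries. Skil, a SMAD co-repressor gene, rose at the EpiLC step by 2.71 and 2.69. None of the 3 E protein genes, whose products the ID proteins block, was called at the PGCLC step by limma. In each origin 1 of 3 had an unadjusted p under 0.05, as had 8699 and 8738 of all 14059 genes. This was Tcf4 (0.99 and 0.86), named after its values were seen.

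In the table of reprogramming cells the members were compared among 6 libraries, 2 a group. The day 16 libraries carry XEN, for extraembryonic endoderm, in their titles. Of its markers Gata6 averaged 84.2 FPKM at day 16 and 86.1 at day 28, Foxa2 42.1 and 33.3, and Sox17 6.33 and 26.6. Most of the others averaged higher at day 28, such as Lamb1 (17.7 and 77.7) and Ihh (3.61 and 21.3). Gata4 and Sparc averaged lower. Of the granulosa cell markers Cyp11a1 averaged 1112 FPKM at day 16 and 449 at day 28, Star 357 and 217, and Foxl2 22.37 and 21.35. The part of either cell type in the differences of members between the days was not tested. At day 16 Id3 was at 458 and 405 FPKM, Id1 at 276 and 198, and Id2 at 175 and 149. Smad6 was at 34.3 and 31.2 FPKM, Msx1 at 11.7 and 10.2, Smad7 at 6.07 and 7.82, Msx2 at 5.99 and 4.70, Bambi at 5.82 and 5.16, and Id4 at 2.32 and 2.80. The ID genes other than Id4 thus stood highest, with Smad6 next. From day 16 to day 28 limma called 0 of 9, where 5.34% of all genes were called, 84.5% of them higher, a share of 70.4% with median-ratio scaling, which moved the median of all genes by -0.16. Of the 9 members 6 had an unadjusted p under 0.05, as had 5371 of all 13266 genes tested. Id2 went to 117 and 116 FPKM (-0.47 ± 0.11, adjusted p = 0.0286) and Bambi to 8.34 and 7.74 (0.48 ± 0.11, adjusted p = 0.0287). Neither reached the minimum of 1. Under quantile normalization Id2 differed by -0.28 and Bambi by 0.21 (adjusted p = 0.30).

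With crotonic acid at day 28, 1 of 9 members was called, where 2.05% of all genes were called in either direction and 1.2% lower. Id4 was at 3.49 and 4.10 FPKM without and at 1.12 and 1.13 with crotonic acid. The groups did not overlap, and the Id4 difference was -1.17 ± 0.13 (limma adjusted p = 0.00889). The call was lost on leaving out any 1 of the 4 libraries, with adjusted p from 0.0832 to 0.105 and differences from -1.08 to -1.26. Bambi was at 8.34 and 7.74 FPKM without and 4.64 and 4.49 with crotonic acid, a difference of -0.70 ± 0.11 (adjusted p = 0.019) that did not reach the minimum. Both values lay below those of day 16 as well. The other 7 members differed by -0.40 (Msx1) to 0.10 (Id2), with intervals from -0.70 to 0.36. The 10 fibroblast markers summed to between 1370 and 1428 FPKM without and between 946 and 964 with crotonic acid. The 10 granulosa cell markers summed to between 801 and 846 and between 1067 and 1104. The 10 markers of pluripotent stem cells summed to between 84.3 and 89.5 and between 148 and 151. Most extraembryonic endoderm markers averaged lower with crotonic acid. Sox7 went from 11.43 to 2.51 FPKM, Sox17 from 26.6 to 9.975, Lamb1 from 77.73 to 31.94 and Gata6 from 86.1 to 56.64. Foxa2 went the other way, from 33.3 to 52.32 FPKM. The part of such cells in the differences of members with crotonic acid was not tested. Of 9 tested antagonist genes 1 fell, Nog, whose product noggin traps BMPs, by 1.53 (adjusted p = 0.0057), from 5.05 and 6.02 FPKM to 1.38 and 1.14.

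**Figure D5:**
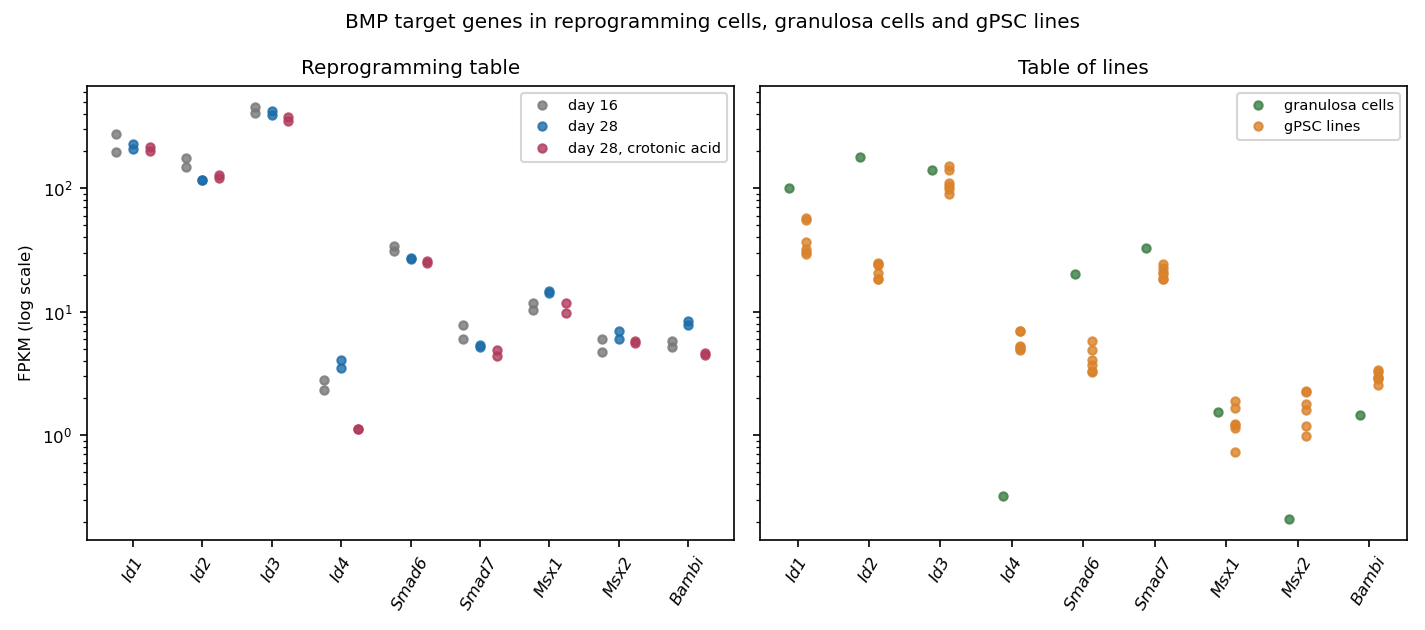
FPKM of the 9 members on log axes, with a point for each library: on the left the 6 reprogramming libraries, on the right the granulosa cell library and the 6 gPSC lines. Id4 and Bambi are lower with crotonic acid, and Id1, Id2 and Smad6 are lower in all lines than in granulosa cells.

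Granulosa cells and the lines derived from them were set side by side in 1 table. The granulosa cell library was at 178 FPKM for Id2, 140 for Id3, 101 for Id1, 33.0 for Smad7, 20.1 for Smad6, 1.53 for Msx1, 1.47 for Bambi, 0.32 for Id4 and 0.21 for Msx2. Over the 6 lines Id2 had its lowest, median and highest level at 18.3, 22.3 and 24.8, Id1 at 29.1, 34.3 and 57.9 and Smad6 at 3.23, 3.88 and 5.83. No line reached the granulosa cell level of these 3 genes. Id4 was at 4.91, 5.25 and 7.00 FPKM and Msx2 at 0.99, 1.7 and 2.29, above the granulosa cell level in all 6 lines. The fibroblast markers averaged higher in the lines too, with Col1a1 at 609 FPKM against 19.7 in granulosa cells and Thy1 at 178 against 2.03. The part of fibroblast RNA in the differences of members between lines and granulosa cells was not tested. Against the single granulosa cell library, which is assumed to vary as the lines do and whose own spread was not measured, limma called 3 lower and 2 higher of 9, where 39.5% of all genes were called in either direction, 17.7% lower and 21.8% higher. The difference was -2.99 ± 0.18 for Id2 (adjusted p = 5.14e-06), -2.05 ± 0.26 for Smad6 (adjusted p = 0.000209) and -1.37 ± 0.38 for Id1 (adjusted p = 0.0125). Id4 was higher by 2.34 ± 0.20 (adjusted p = 2.95e-05) and Msx2 by 1.12 ± 0.28 (adjusted p = 0.0069), the latter 0.89 and not called under quantile normalization. For Id3 the difference was -0.31 (95% interval -0.92 to 0.31).

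Among the lines gPSC2 and gPSC10 stood apart. Id1 was at 57.9 and 55.2 FPKM in them and at 29.1 to 36.4 in the other 4, and Id3 at 140 and 150 against 89.8 to 110.5. Id4 was at 7.00 in both, against 4.91 to 5.28. The 10 fibroblast markers summed to 1959 and 1772 FPKM in these lines and to 937 to 1187 in the other 4, and the part of fibroblasts in this was not tested. Of the pathway in the lines, Bmp4 was higher than in granulosa cells by 2.80, Bmpr2, the type II receptor gene, lower by 3.4, and the antagonist gene Bmper lower by 4.46. Eng, a co-receptor gene, was higher by 2.86, Smad9 lower by 2.44 and Tbx3 higher by 5.06.

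Levels in the remaining tables, each normalized on its own, are given without comparison across tables. A further granulosa cell library had Id2 at 173 FPKM, Id3 at 118, Id1 at 106, Smad7 at 28.1 and Smad6 at 17.6, with Msx1 at 1.46, Bambi at 1.63, Id4 at 0.31 and Msx2 at 0.22. In the same table the 2 ES libraries had Id3 at 38.5 and 32.3 FPKM, Id1 at 15 and 14.2, Id2 at 10.7 and 10.9, and Smad7 at 12 and 11.6. The order thus differed, with Id2 first in granulosa cells and Id3 first in ES cells. The fibroblast library of that table had Id3 at 155 FPKM, Id1 at 58.8, Id2 at 33.6 and Id4 at 21.6, and the fibroblast library of its own table had Id3 at 97.1, Id1 at 33.2, Id2 at 29.6 and Id4 at 21.2. Msx1 was under 1 FPKM in both fibroblast libraries.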

How the data were processed

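RNA-seq was made from RNA extracted with a Qiagen mini kit and NEBNext Ultra libraries, per the labels' protocols. The authors deposited FPKM per gene and library in 5 tables, each compared only within itself. The submitters' processing notes name mm10, Bowtie2, HISAT2, RSEM, DESeq2 and R, with no role or order given, and each tool's part is not given in the sources used here. In the induction table the low FPKM steps gave whole reads for 16559 genes (100% of those with at least 3 nonzero libraries, within 0.001 reads), between 6107146 and 25223551 per library, and the depth of the other tables is unknown.

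From these values log2(FPKM + 1) was tested with limma 3.58.1 in R 4.3.3, with a trended prior and Benjamini-Hochberg adjustment over all genes tested: genes at 1 FPKM or more in at least 3 induction, 2 reprogramming or 1 line libraries (14059, 13266 and 13797 genes). All groups of a table entered 1 fit. Named are all 9 members, up to 4 called genes a pathway list and comparison with a group mean of at least 5 FPKM (a selection of them is printed), and the gene most like each member. Intervals of read ratios are exact Poisson ones at 95% and cover counting error only. Each library was left out in turn, and the other alternatives were a pseudocount of 0.1, no filter, quantile or median-ratio scaling, a prior without trend, calls without a minimum difference, a fit of 2 groups by themselves, and a replicate block. The voom test on recovered reads and the EpiLC step between origins were chosen after seeing the data. Scripts were tested on simulated data. The members and lists were chosen with earlier results of these data known. Sequences are RefSeq's for GRCm38.p6, the assembly of mm10. The ESC columns and the fibroblast columns were matched to their group and not to a numbered sample. The crotonic acid columns carry CS in their names and were matched by inference to the sample titles with CA.

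Replicate numbers were not taken to pair the libraries, since the labels name no shared culture. Deviations of same-numbered libraries correlated from -0.03 to 0.17 in the induction table. Outside the comparisons with PGC these correlations were all weakly positive, from 0.006 to 0.17.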

Additional observations from a re-analysis of the deposited data

How the results depend on the processing

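Of 2151 values of single members under another setting 2052 kept their direction and their side of the threshold, 25 became called, 10 lost the call and 64 turned sign. Of those 64, 0 belonged to a call, and 55 arose with 1 library left out. Of 239 counts of members called 229 were within 1.5 times the reported count. The 10 others were the following. Without a minimum log2 difference 5 members were called at the EpiLC step of ESC origin and 5 at that of gPSC4 origin, 1 in EpiLC between the origins, 2 from day 16 to day 28 and 2 with crotonic acid. With a pseudocount of 0.1 the EpiLC step of gPSC4 origin had 5 members called. With 1 library left out, members called with crotonic acid ranged from 0 to 0, and the genes called in all fell from 272 to between 7 and 25.

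Calls were lost for Id1 at the EpiLC step of ESC origin (voom), Id4 with crotonic acid (each of 4 libraries left out), Msx2 in the lines (quantile normalization) and Smad6 in gPSC4-PGCLC against gPSC4, which was 1.03 and became 0.97 with median-ratio scaling and 0.87 with quantile normalization. The cause was not tested. Bambi at the PGCLC step of gPSC4 origin was called with a pseudocount of 0.1 (1.01) and by voom (1.00).

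The numbers share no known pairing. With the replicate block 11 of 11 counts of members called were as reported and 0 calls of single members changed, as for Id4 with crotonic acid at -1.17 (limma adjusted p = 0.00651). Same-numbered libraries of the reprogramming table, 2 pairs a comparison, correlated at 0.27 and 0.14. No paired analysis was possible for comparisons with ESC or the lines because the ESC columns carry no number and the lines share none. With 2 or 3 libraries a group, an interval that holds 0 shows neither a difference nor its absence.

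For the differences whose sign turned, the lowest adjusted p as reported, from limma over all genes tested, was 0.263. With 1 library left out, each is given as the range from its lowest to its highest log2 difference. At the PGCLC step from ESC the range was -0.18 to 0.25 for Smad7. At the PGCLC step from gPSC4 the range was -0.13 to 0.26 for Smad7. For the origin difference of the PGCLC step the range was -0.14 to 0.49 for Id3, -0.13 to 0.31 for Smad7, -0.65 to 0.15 for Id4 and -0.095 to 0.48 for Msx1. At the EpiLC step from ESC the range was -0.32 to 0.22 for Msx1. At the EpiLC step from gPSC4 the range was -0.23 to 0.024 for Id2. In ESC-PGCLC against ESC the range was -0.46 to 0.063 for Id4. In gPSC4-PGCLC against gPSC4 the range was -0.41 to 0.39 for Id4. In gPSC4 against ESC the range was -0.17 to 0.086 for Id2, -0.058 to 0.38 for Id4, -0.22 to 0.034 for Smad7, -0.18 to 0.28 for Smad6 and -0.072 to 0.26 for Msx2. Between EpiLC the range was -0.24 to 0.21 for Id1. Between PGCLC the range was -0.34 to 0.087 for Smad7, -0.12 to 0.049 for Bambi, -0.012 to 0.14 for Id2 and -0.075 to 0.73 for Id4. In PGC against ESC-PGCLC the range was -0.13 to 0.30 for Smad7, -0.021 to 0.078 for Id2 and -0.33 to 0.026 for Msx1. In PGC against gPSC4-PGCLC the range was -0.20 to 0.56 for Id1, -0.11 to 0.037 for Id2, -0.14 to 0.091 for Msx2 and -0.072 to 0.73 for Id4. From day 16 to day 28 the range was -0.34 to 0.14 for Id1 and -0.17 to 0.011 for Id3. With crotonic acid the range was -0.13 to 0.0050 for Id1. For the origin difference of the EpiLC step the range was -0.27 to 0.0040 for Smad7, -0.62 to 0.0089 for Id3, -0.44 to 0.14 for Msx1 and -0.10 to 0.69 for Id4. With quantile normalization the sign turned for Msx1 at the EpiLC step from ESC (0.014), Id1 from day 16 to day 28 (0.16), Id3 from day 16 to day 28 (0.14) and Msx2 from day 16 to day 28 (-0.028). By voom the sign turned for Msx1 at the EpiLC step from ESC (0.10), Msx2 in PGC against gPSC4-PGCLC (0.012) and Smad7 for the origin difference of the EpiLC step (0.0046). With a pseudocount of 0.1 the sign turned for Smad6 in gPSC4 against ESC (-0.060). With median-ratio scaling the sign turned for Id1 with crotonic acid (0.0076).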
